A study of Mus musculus with 4 samples.

Results

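The regions described here are H3K27ac peaks that were called in both chondrocyte cultures of the study and that lie far from protein-coding genes. A peak of the Cre library was a member when it overlapped a peak of the GFP library by at least 1 bp and both its edges lay more than 20 kb from every protein-coding gene of the mouse build mm10. This gave 564 of the 13130 Cre peaks, out of 5345 that overlapped a GFP peak. The members met 552 of the 12873 GFP peaks. Members were chosen by 2 values, the overlap of the peaks and their distance from genes, so neither is a finding. The nearest member lay 20174 bp from a gene and the last overlapping peak left out lay 19989 bp from one. The smallest overlap was 1 bp, and the closest Cre peak without overlap in the same territory lay 3 bp from a GFP peak.

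The Hdac3 knockout culture was made from C57Bl/6 primary chondrocytes kept in micromass (dense spots of cells that lay down cartilage matrix) and given an adenovirus carrying Cre recombinase. Its control was labelled wild type and received an adenovirus carrying GFP, so strain and adenovirus were shared by both. Each culture gave 1 H3K27ac library, called Cre and GFP here, and the input libraries are not analysed here. The labels do not give the animals' age, the floxed allele or the share of cells transduced, and peaks of acetylation are no measure of how far Hdac3 was deleted. With 1 library per culture there were no replicates and no test between them: intervals of shares and pileups below are exact 95% intervals for counting error alone, those of medians are 95% order-statistic intervals for the spread among peaks, and neighbouring peaks of a single library are not independent.

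H3K27ac, acetylation of lysine 27 on histone H3, is found on nucleosomes beside active promoters and enhancers. Enhancers can act on genes across long stretches of non-coding DNA, and runs of closely spaced acetylated peaks are typical around genes that define a cell's identity. HDAC3 is the catalytic histone deacetylase of nuclear receptor corepressor complexes, and the study asked which acetylated sites go with genes that change in its absence. Enhancers far from Sox9 and Acan are among those known in mouse cartilage. A nearest or flanking gene below is a position and not an assigned target.

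Both libraries had peaks at all 8 defining chondrocyte genes looked at (the gene with 10 kb on each side), 99 Cre and 116 GFP peaks in all. The 4 endothelial, 4 muscle and 4 adipocyte markers had none in either. Of 4 osteoblast markers 1, Sp7, had 2 Cre and 3 GFP peaks, and of 4 macrophage markers 1, Cd68, had no Cre and 3 GFP peaks. The number of fragments at a peak's summit (the summit pileup) was recovered from the deposited values. The Cre library had a background pileup of 1.008 and the GFP library of 0.949, so ratios of pileups were divided by 1.06.

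MicroRNA genes of the let-7 family lay in several of the gaps between protein-coding genes that held most members, so their sequences come first. Their distances differed: the nearest member lay 4911 bp from Mirlet7c-2, 19324 bp from Mirlet7a-2 and 43997 bp from Mirlet7c-1. let-7 microRNAs restrain growth-promoting messages and accumulate as cells differentiate, and miR-99a, miR-100 and miR-125b are encoded next to let-7 genes in mammals. Mature sequences are from RefSeq (GRCm38.p6), written 5′ to 3′ with the seed, bases 2 to 8, in capitals. For Mirlet7a-2 on chromosome 9 the sequences used held only let-7a-2-3p, so let-7a-5p is labelled with chromosome 13 alone. The microRNA genes were looked up after the positions of the peaks had been seen. The first 5 share the let-7 seed, the next 2 share a seed, miR-125b has its own, and the last 2 share a seed.
let-7b-5p (chr15): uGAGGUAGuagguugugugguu
let-7c-5p (chr15 and chr16): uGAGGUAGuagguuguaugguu
let-7d-5p (chr13): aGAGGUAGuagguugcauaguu
let-7f-5p (chr13): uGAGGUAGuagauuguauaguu
let-7a-5p (chr13): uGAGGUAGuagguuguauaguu
miR-99a-5p (chr16): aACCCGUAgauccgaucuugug
miR-100-5p (chr9): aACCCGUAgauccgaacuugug
miR-125b-5p (chr9 and chr16): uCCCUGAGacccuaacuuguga
miR-15a-5p (chr14): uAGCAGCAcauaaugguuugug
miR-16-5p (chr14): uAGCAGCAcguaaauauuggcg

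A member lay within 50 kb of 7 of the 11 let-7 genes in the gene table (63.6%), at 4 loci, and of 20 of 1228 microRNA genes of all kinds (1.63%). Of the 523 microRNA genes that had any sequence over 20 kb from a protein-coding gene within 50 kb, those 20 were 3.82%. Genes of 1 locus share their peaks and are not independent, and any Cre peak lay within 50 kb of 38.7% of microRNA genes and any GFP peak of 37.9%. Within 20 kb it was 6 let-7 genes (54.5%) and 18 microRNA genes (1.47%). The other 13 within 50 kb were Mir99a, Mir100, both Mir125b genes, Mir15a, Mir16-1, Mir101a, Mir802, Mir3089, Mir3966, Mir143, Mir145a and Mir5112.

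Some members overlapped the promoter window of a long non-coding RNA gene, and 4 of those windows are shown. Malat1, Mir99ahg and Bmncr are shown because their loci are described below. Zmiz1os1 was picked from the windows that hold a member's summit, and the others of that kind are not shown. Each window runs from 250 bases before to 50 after the annotated start (RefSeq, GRCm38.p6). Of the 4 Cre peaks, that of Mir99ahg covered the whole window, and those of Malat1, Zmiz1os1 and Bmncr overlapped 123, 112 and 49 upstream bases of theirs without reaching the start. The Malat1, Mir99ahg and Bmncr windows carry a motif of TEAD (CATTCC) or ETS (CCGGAA) factors in capitals, and the Zmiz1os1 window holds overlapping SOX letters (AACAAT and ACAATG). A match says only that the letters are there.
Malat1, chr19:5802623-5802922, minus strand: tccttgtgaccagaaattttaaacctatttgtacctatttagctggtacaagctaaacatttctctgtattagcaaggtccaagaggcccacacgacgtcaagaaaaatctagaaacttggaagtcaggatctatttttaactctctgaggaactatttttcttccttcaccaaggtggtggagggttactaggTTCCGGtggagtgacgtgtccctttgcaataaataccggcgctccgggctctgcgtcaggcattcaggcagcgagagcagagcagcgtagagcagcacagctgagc
Zmiz1os1, chr14:25378463-25378762, minus strand: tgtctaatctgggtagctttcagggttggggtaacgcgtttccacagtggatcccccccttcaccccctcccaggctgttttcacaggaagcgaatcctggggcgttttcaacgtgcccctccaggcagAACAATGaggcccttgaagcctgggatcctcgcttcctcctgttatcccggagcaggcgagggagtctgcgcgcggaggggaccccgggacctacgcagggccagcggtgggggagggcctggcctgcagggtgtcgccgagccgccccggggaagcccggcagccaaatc
Mir99ahg, chr16:77329078-77329377, plus strand: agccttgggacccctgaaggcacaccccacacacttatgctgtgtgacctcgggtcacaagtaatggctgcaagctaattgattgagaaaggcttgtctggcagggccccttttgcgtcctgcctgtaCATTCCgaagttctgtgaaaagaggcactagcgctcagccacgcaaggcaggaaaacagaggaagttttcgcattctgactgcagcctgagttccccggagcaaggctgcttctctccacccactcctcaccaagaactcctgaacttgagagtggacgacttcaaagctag
Bmncr, chr1:133977031-133977330, plus strand: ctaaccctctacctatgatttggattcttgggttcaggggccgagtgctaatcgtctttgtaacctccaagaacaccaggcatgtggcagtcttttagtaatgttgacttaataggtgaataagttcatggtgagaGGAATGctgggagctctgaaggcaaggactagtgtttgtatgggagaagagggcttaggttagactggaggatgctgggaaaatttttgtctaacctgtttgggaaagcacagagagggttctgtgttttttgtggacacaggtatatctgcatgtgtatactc

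Windows of this kind were overlapped by 17 members (3.01%, 1.77 to 4.78), all of them at long non-coding RNA genes. Among peaks called in 1 library over 20 kb from a gene, 15 Cre peaks (1.48%) and 13 GFP peaks (1.73%) did so. The summit itself was inside the window in 4 members, at Zmiz1os1, Gm5546, Gm52901 and Gm30701. The RUNX letters TGTGGT, on either strand, were in 7 of the 17 windows (41.2%, 18.4 to 67.1), against 16.8% of all 32851 promoter windows and 20.05% of those of long non-coding RNA genes. The AP-1 letters TGANTCA were in 3, against 7.81% of all windows, and the TEAD letters in 4, against 14.7%. TGCGGT, TTGCNNAA of CEBP and AGGGGGC of CTCF were in none of the 17, which allows up to 19.5%. The windows had a median GC content of 51%, against 52.7% over all windows. These counts are too small to set the members' windows apart, and no sequence of the other members was used here.

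Far from protein-coding genes did not mean far from every gene. Of the 564 members, 165 (29.3%, 25.5 to 33.2) overlapped a long non-coding RNA gene, against 30.04% of one-library Cre peaks and 30.9% of one-library GFP peaks in the same territory. Mir100hg, the host transcript of miR-100, held 11 members and Mir99ahg, the host of miR-99a, held 9. Only 216 members lay over 20 kb from any annotated gene.

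Members made up 10.6% (9.74 to 11.4) of overlapping Cre peaks, where 12% of all Cre peaks lay that far out. Cre peaks without overlap lay there in 13.0% (12.3 to 13.8) of cases. Read the other way, 35.8% (33.4 to 38.2) of far Cre peaks overlapped a GFP peak, against 41.4% (40.5 to 42.3) of Cre peaks nearer to genes and 40.7% of the whole list. In the GFP list far and near peaks were overlapped about equally, at 42.3% (39.6 to 45.1) and 41.3% (40.4 to 42.2), with 41.4% over the whole list. The far territory held 1576 Cre and 1304 GFP peaks, so the lower share in the Cre list went with a larger number of far Cre peaks, whose part in it was not tested.

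The nearest protein-coding gene was a median of 60287 bp away (quartiles 36392 and 127564), and the farther flanking gene a median of 182014 bp. More than 100 kb separated 170 members (30.1%) from any protein-coding gene and more than 500 kb separated 20. The farthest member lay 1177899 bp from Cited2, a CBP/p300-binding regulator, and 1773631 bp from Nmbr, a bombesin-family receptor gene, on chromosome 10, with 11 Cre and 17 GFP fragments. Next came 3 members between Sorcs3 and Sorcs1 on chromosome 19 (chr19:49422105-49424046), with Cre pileups of 20, 13 and 16 and GFP pileups of 13 and 11, the second GFP peak being shared by 2 of them. Beyond Myc, the growth regulator gene, 3 members sat together 578581 to 579558 bp away, with Cre pileups of 18, 12 and 18 against GFP pileups of 10 and, under the other two, 17. A lone member between F2rl3 and Isx, 578642 bp from F2rl3, had 12 Cre and 10 GFP fragments. Strength was similar in each class of distance: median Cre and GFP pileups were 14 and 13 at 20 to 50 kb, 15 and 14 at 50 to 100 kb, and 13.5 and 13 beyond 500 kb.

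**Figure D1:**
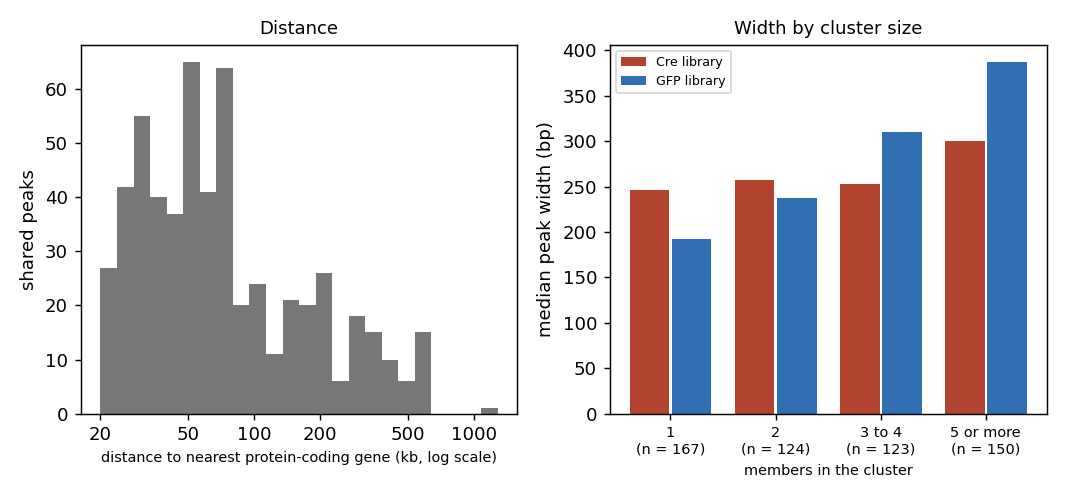
Left, number of members by distance to the nearest protein-coding gene (kb, log scale). Right, median peak width (bp) in the Cre and GFP libraries by the number of members in a cluster. Clusters of 5 or more had medians of 300 (Cre) and 387 bp (GFP), and single members 246 and 192 bp. A GFP peak counts once for each member on it.

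Most members stood in groups. When members whose edges lay within 25/2 kb of each other were joined, they fell into 287 regions, of which 167 were single members and 120 were clusters of 2 or more. Clusters held 397 members (70.4%, 66.4 to 74.1), 58 had 3 or more members and 22 had 5 or more. One-library Cre peaks in the same territory were clustered among themselves in 64.3% (61.3 to 67.3) of cases. They also gathered around members: 38.9% of one-library Cre peaks and 47.2% of one-library GFP peaks lay within that distance of one. Peak callers can divide 1 acetylated domain into several rows, so a cluster need not be a set of separate elements.

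Members in large clusters were wider and slightly taller than single ones, in both libraries. The 150 members in clusters of 5 or more had median widths of 300 (Cre) and 387 bp (GFP) and median pileups of 15 and 16. The GFP medians count a GFP peak once for each member on it, so wide GFP peaks under several members enter repeatedly. In the largest cluster 21 members lay on 17 GFP peaks. The 167 single members had 246 and 192 bp and pileups of 13 and 13.

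The members filled few of the places open to them. Of 6018 gaps between protein-coding genes wide enough to hold one, 201 did (3.34%); 90 of these held 1 member, and 33 held 5 or more and together 269 members (47.7%). The 5 fullest gaps held 90 members (16.0%). Gaps with a member were wider than others, with a median of 235579 bp against 98202.5 bp for all gaps wide enough, and their width was not taken into account in the counts. Chromosome 16 had 61 members, 25.6% of its overlapping peaks, with 24 of them in 1 gap.

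**Figure D2:**
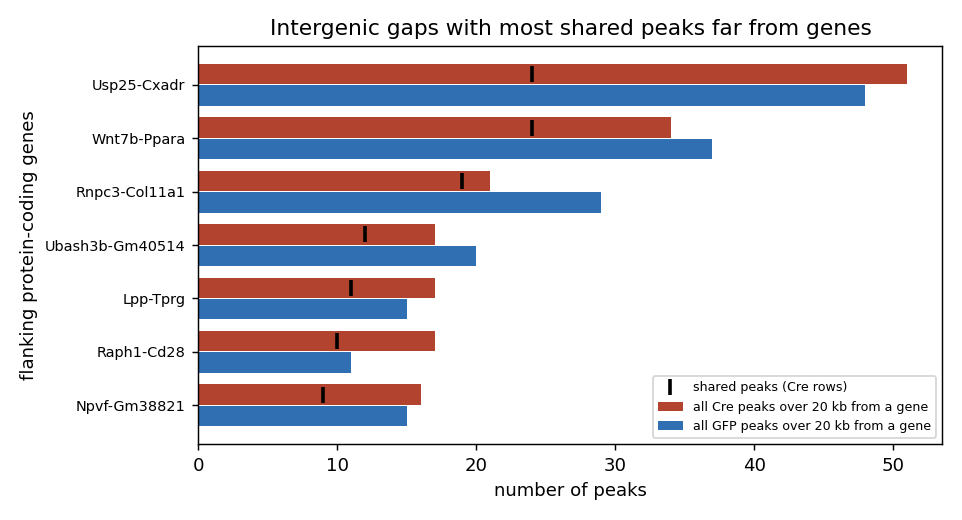
Number of Cre and GFP peaks over 20 kb from a gene in the 7 intergenic gaps with 9 or more members (bars) and number of members (black ticks), each gap named by its flanking protein-coding genes. The gap between Usp25 and Cxadr had 51 Cre and 48 GFP peaks, with 24 members.

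The largest cluster stood before the let-7 genes of chromosome 15. Between Wnt7b, a Wnt ligand gene, and Ppara, the fatty acid receptor gene, 24 members spanned chr15:85611451-85701691, and 21 of them formed 1 cluster of 40380 bp. That cluster ended at chr15:85686218, more than 20 kb before either let-7 gene. The last member stood alone outside it and ended 4911 bp before Mirlet7c-2 and 5627 bp before Mirlet7b. Cre pileups ran from 8 to 33 (median 14) and those of the GFP partners from 8 to 37 (median 15.5). The tallest GFP peak of any member was here, 3501 bp wide with 37 fragments and a fold of 19.5; in the Cre list 4 separate rows of 816, 500, 2072 and 519 bp lay on it, with 16, 22, 33 and 18 fragments. Folds are the authors' values and rank peaks within their own list only. Over the whole gap 34 Cre peaks covered 14513 bp and 37 GFP peaks covered 16347 bp. Each of those 4 rows is set against the tallest point of the wide GFP peak, and at the tallest points of both, 33 against 37 fragments, the intervals overlapped.

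The gap between Usp25, a deubiquitinase gene, and Cxadr, encoding the coxsackievirus and adenovirus receptor, held as many members, 24, over 1005159 bp of chromosome 16. Mir99ahg covered 9 of them. At the Mir99ahg start, whose window is printed above, the Cre peak was 2730 bp wide with 24 fragments. Its GFP partner, the overlapping GFP peak of highest fold, was 839 bp wide with 28. In 39 members (6.91%) several GFP peaks overlapped the Cre peak, and a partner's width leaves out the others. The 2 widths at this start are therefore not compared. A cluster of 5 further inside Mir99ahg (chr16:77499657-77504188) had Cre pileups of 16, 22, 29, 24 and 17. Its GFP partners had 20, 33 (a single peak of 2854 bp under 3 of the rows) and 13. A pair, the nearer 1476 bp before Mir125b-2, had 16 and 11 Cre fragments against 24 and 15 GFP fragments. Near Usp25 the order was the other way: the first member had 31 Cre against 17 GFP fragments, a ratio of 1.72, and intervals that overlapped.

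Mir100hg on chromosome 9, which carries Mir100, Mirlet7a-2 and Mir125b-1, is the paralogous host gene. Its gap, between Ubash3b and Gm40514, held 12 members, 11 of them inside Mir100hg, and 7 formed a cluster of 5116 bp at Mir125b-1, 1 of which covered that gene. In this cluster the Cre pileups were 18, 14, 16, 18, 13, 18 and 15, against GFP pileups of 24, 21, 21, 20, 20, 16 and 14 in the same order, the value of 20 being that of a single GFP peak under 2 rows. In the chromosome 13 let-7 locus, between Zfp169 and Ptpdc1, 2 members with 17 and 11 Cre and 13 and 10 GFP fragments lay 7095 and 9475 bp from Mirlet7a-1. Mir15a and Mir16-1 had 4 members in Dleu2, the nearest 13237 bp from Mir15a; DLEU2 is a non-coding gene often lost with them in human leukaemia. They met 3 GFP peaks and had Cre pileups of 13, 17, 9 and 20, against GFP pileups of 17 for the partner of the first row and 19 for the partner of the other 3.

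**Figure D3:**
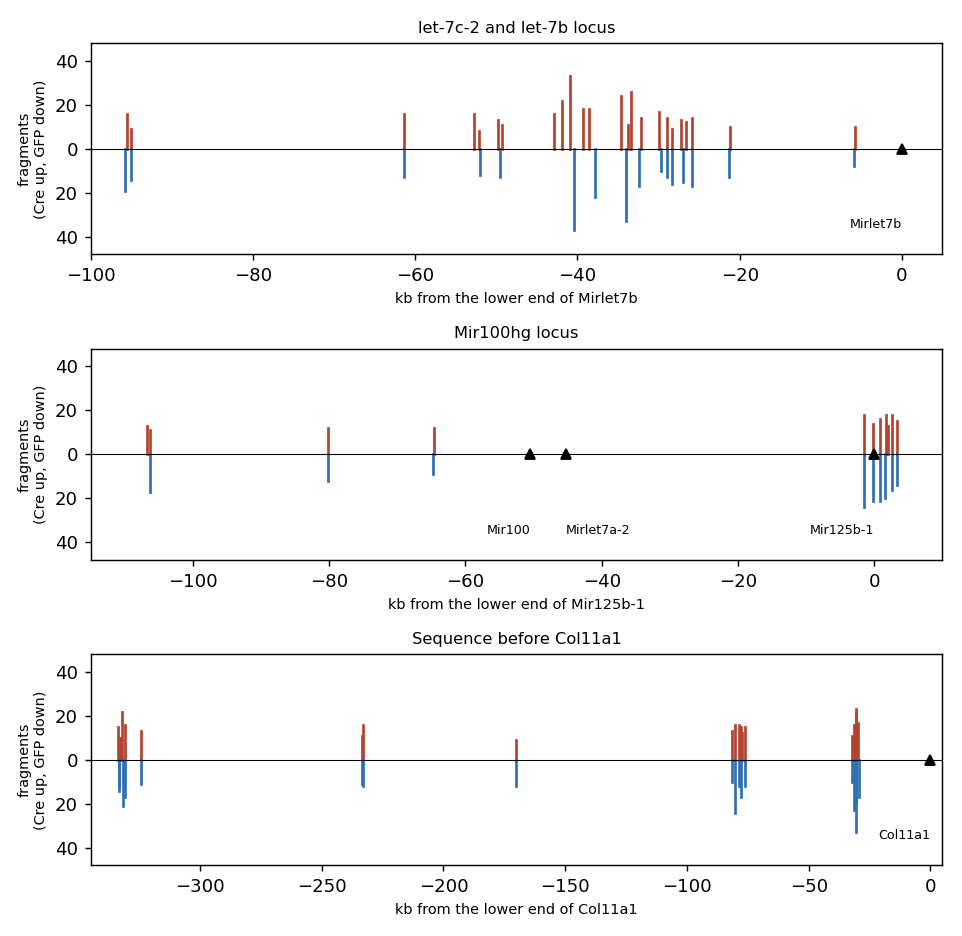
Summit pileups (fragments) of members in the Cre library (up) and of their GFP partners (down) by distance (kb) from the lower end of Mirlet7b, Mir125b-1 and Col11a1. Triangles mark the genes; the 12th member of the Mir100hg gap lies outside the window. Before Mirlet7b the tallest peaks had 33 Cre and 37 GFP fragments, and before Col11a1 23 Cre and 33 GFP fragments.

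Of the cartilage matrix genes, 9 of the 43 in the gene table (20.9%) flanked a member, and 9 of the 23 beside a gap wide enough (39.1%), against 1.77% of all 21883 genes and 4.31% of the 8969 beside a wide gap. The list was chosen with results of these data known, and no test was made. Between Rnpc3 and Col11a1, a fibrillar collagen gene of cartilage, 19 members lay 29128 to 333430 bp before Col11a1, in 5 groups. Rnpc3 was the nearest gene of 7 of them and Col11a1 of 12. In the group nearest to Col11a1 the Cre pileups were 11, 16, 23, 21 and 17, against GFP pileups of 10, 23, 33, 20 and 17. The next group had Cre pileups of 13, 16, 16, 15, 12 and 15 against GFP pileups of 10, 24, 12, 17 and 12, and 1 GFP peak was shared by 2 rows. In the gap as a whole 21 Cre peaks covered 7394 bp and 29 GFP peaks 10005 bp, and the intervals overlapped at each of the 19 members.

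Between Isg20 and Acan, the aggrecan gene, 5 members lay 31049 to 87670 bp before Acan. Their Cre pileups were 13, 14, 9, 11 and 17 against GFP pileups of 13, 11, 12, 14 and 17. Prelp and Fmod, both encoding small leucine-rich proteoglycans, share a gap with 6 members, 4 of them in Bmncr, a non-coding gene studied in bone marrow stromal cells. Their Cre pileups were 15, 12, 16, 12, 10 and 15 against GFP pileups of 12, 12, 12, 10, 13 and 15, and all 6 pairs of intervals overlapped. Dcn, the decorin gene, had 5 members with Cre pileups of 20, 17, 13, 11 and 15, against GFP pileups of 14 under the first 2 rows and then 13, 13 and 8. Hapln1, the link protein gene, had 3 in its gap with Edil3, and Thbs1, Has2 and Papss2 had 2, 1 and 1.

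Chondrocyte transcription factors flanked members in 11 of 47 cases (23.4%, and 28.9% of the 38 beside a wide gap). Hif1a, the oxygen-response factor of growth cartilage, and Prkch flank 7 members in 1 cluster of 22417 bp. Prkch was the nearer gene of all 7, and the cluster lay 31074 bp from Prkch and 69647 bp from Hif1a. Cre pileups ran from 10 to 17 (median 14) and GFP pileups from 11 to 18 (median 13). Pair by pair the median log2 ratio of Cre over GFP there was −0.17. Trps1, a GATA-type repressor of chondrocytes, had 8 members 407580 to 702509 bp away, with medians of 14 and 14. For 4 of these the nearest gene was Eif3h, on the other side of the gap. Sox9, the master regulator of cartilage, had 3, at 161189, 308255 and 483354 bp, with Cre pileups of 12, 13 and 20 against 12, 14 and 12 in the GFP library. Zbtb20, a repressor active in hypertrophic chondrocytes, had 4 lying 70672 to 72437 bp away, with Cre pileups of 17, 28, 23 and 16 and GFP pileups of 23 under the first 2 rows, then 17 and 16. Runx1, Klf4, Foxc1, Foxa2, Foxo1, Pax1 and Arid5b were the others, and Pax1 and Foxa2 flank the same member. Flanking set no limit on distance in any list. The nearest member lay 40529 bp from Foxc1 and 74532 bp from Arid5b. It lay 118127 bp from Klf4, 126973 from Runx1, 225253 from Foxa2, 442359 from Pax1 and 443193 from Foxo1.

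Members were not limited to the surroundings of cartilage genes. In the osteoblast list, kept as another cell type, 3 of 12 genes flanked one (25%, and 33.3% of the 9 beside a wide gap), shares near those of the cartilage matrix and chondrocyte factor lists. They were Col1a2, a type I collagen gene, and Spp1 and Mepe, which encode bone matrix proteins and flank the same member. AP-1 and immediate-early genes flanked members in 4 of 29 cases (13.8%, and 23.5% of the 17 beside a wide gap: Myc, Klf6, Maf and Ier3) and cytoskeletal and YAP-pathway genes in 4 of 44 (Ccn1, Ccn2, Cav1 and Amotl2). In the list of Wnt, hedgehog and FGF genes 3 of 52 did (Gas1, Fgfr2 and Fgfr3). Wnt7b, which flanks 24 members, was not on that list. Limb patterning factors flanked members in 3 of 65 cases, BMP and TGF-β genes in 2 of 40 and cytokine genes in 1 of 43. Among the further lists of other cell types and contrast genes, 1 of 10 macrophage genes (1 of 2 beside a wide gap), 1 of 30 neuronal and 1 of 34 ribosomal genes did, and no endothelial, muscle or adipocyte gene. Ccn1, a matricellular target of YAP, had 7 members with Cre pileups from 10 to 18 against GFP pileups from 11 to 23. The macrophage gene was Ptprc, with 5 members, 24560 to 589091 bp away, with medians of 17 Cre and 9 GFP fragments; whether other cells took part was not tested.

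Outside the lists, Malat1, an abundant nuclear RNA, had a cluster of 8 members in and beside it, toward Neat1. Their Cre pileups were 16, 16, 27, 18, 13, 15, 10 and 17, against GFP pileups of 24, 23, 27, 19, 10, 12, 9 and 8. The first 2, inside Malat1, were lower in the Cre library, at ratios of 0.628 and 0.655, and the last, between Malat1 and Neat1, higher at 2.001, all with overlapping intervals; at the member that overlaps the Malat1 window printed above, both libraries had 27 fragments.

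The remaining large clusters flank genes of no single kind. Between Chd2, a chromatin remodeller gene, and Fam174b, 8 members in 23934 bp had Cre pileups of 13 to 27 (median 15.5) against GFP pileups of 9 to 24 (median 18), while the median log2 ratio over the pairs was 0.22, toward Cre. Between Npvf, a neuropeptide gene, and Gm38821, a cluster of 8 had Cre pileups of 9 to 25 (median 18) against 10 to 22 (median 16.5). Between Qpct and Cdc42ep3 the 8 members had medians of 15 and 14, between Raph1 and Cd28, the T-cell costimulator gene, 7 had 13 and 14, and between Msi2 and Akap1 6 had 13.5 and 15.5. Nfat5, the osmotic-stress factor, and Cyb5b flank 6 members in 2108 bp with Cre pileups from 11 to 27 against 13 to 32. Members of high fold also lay between Mrpl36 and Lpcat1 (25 Cre against 21 GFP fragments) and, in a cluster of 3, between Arhgap5 and Akap6 (19 against 26), and the gap at Cstad, beside Mir3089, held one with 23 against 17.

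Members were stronger and wider than one-library peaks in the same territory and about as strong as shared peaks near genes. In the Cre library their median width was 260 bp (244 to 274) and in the GFP library 265 bp (248 to 281), against 237 and 261 bp for shared peaks nearer to genes. One-library peaks far from genes had medians of 183.5 (Cre) and 181 bp (GFP). Median pileups of members were 14 (Cre) and 13 (GFP), and of shared peaks near genes 13 and 14. A pileup of 20 or more was reached by 12.6% of members in the Cre library and by 14.2% in that of GFP, and near genes by 12.51% and 14.4%. Selection by overlap favours strong and wide peaks, so the difference from one-library peaks is a description.

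**Figure D4:**
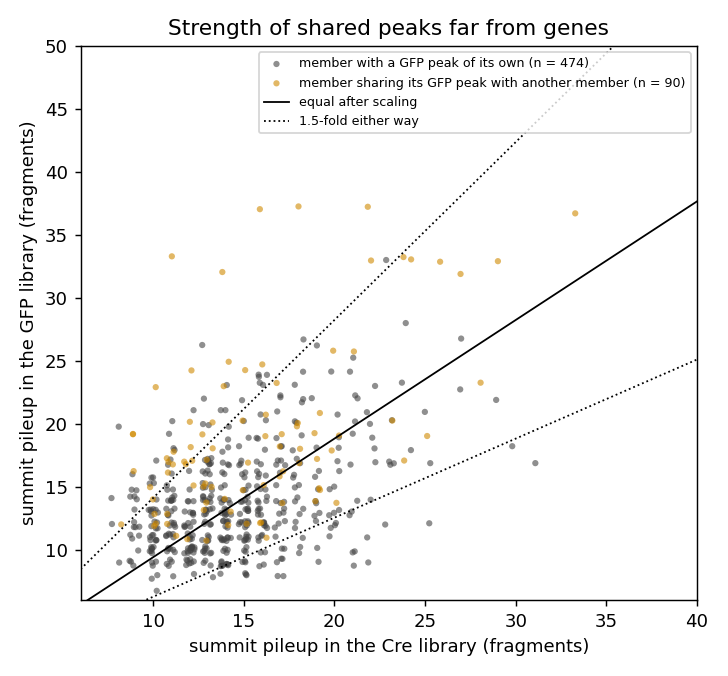
Summit pileup (fragments) of the 564 members in the Cre library (x axis) and of their GFP partners (y axis), with small random offsets so that points do not hide each other. The solid line marks equal pileups after scaling and the dotted lines 1.5-fold either way; 474 members had a GFP partner of their own and 90 shared one.

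Pileups hardly differed between the libraries over the members as a whole. The median log2 ratio of Cre over GFP was −0.087 (−0.087 to 0.013), and −0.087 for shared peaks near genes. Unscaled, the members' median was 0, since −0.087 is the value that the scaling gives to equal pileups, so the same value in both sets says only that equal counts lay at the middle of each. A ratio of 1.5 or more toward Cre was seen in 39 members (6.91%; 4.98% of all overlapping peaks) and toward GFP in 68 (12.1%; 11.5% of all). The excess toward GFP went with rows that share a wide GFP partner: among the 474 members with a partner of their own, 39 leaned each way (8.23%). With each merged region of overlapping peaks counted once, 37 of 510 (7.25%) leaned to Cre and 42 (8.24%) to GFP, against 5.27% and 9.14% of 4899 merged regions in all. Cre peaks were wider than their partner in 48.6% of members (47.0% of all overlapping peaks), and the median log2 ratio of widths was −0.025 (−0.13 to 0.030).

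Across members the pileups of the libraries were loosely related, with a Spearman rho of 0.37 and a Pearson r of 0.42 over 564 peaks, both given as descriptions; the peaks share their libraries and depth. The summits lay a median of 81 bp apart. The members of highest ratio were single peaks between Serp2 and Lacc1 (22 Cre against 9 GFP fragments, ratio 2.30) and between Ddr1 and Ier3 (21 against 9, ratio 2.20). Between Nyap2 and Irs1, and between Slc38a9 and Plpp1, ratios of 2.001 and 1.99 stood on 17 against 8 and 19 against 9 fragments. The lowest with a partner of its own was between Bambi and Lyzl1 (8 against 20, ratio 0.377). Intervals of the pileups were separate in no member toward Cre and in 2 toward GFP, both in the let-7 locus on chromosome 15. Each of these 2 rows overlapped a different wide GFP peak, which also lay under other rows. The GFP summits it was set against lay 2507 and 331 bp from the summits of the rows. Over all 5345 overlapping peaks the intervals were separate in 3 toward Cre and in 6 toward GFP. At the ratio of 2.30 the intervals still overlapped, from 13.8 to 33.3 Cre and from 4.12 to 17.1 GFP fragments, which is no test of the ratio itself.

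The number of peaks per gap was compared as well, and the gaps were examined after the counts had been seen. Members had to be called in both libraries, which limits their pileup ratios, while counts per gap take in peaks of 1 library, so the sizes of these differences are not set against each other. Over all far peaks, 54.7% (52.9 to 56.6) were Cre peaks. In all gaps with a member together it was 52.9% (50.8 to 55.0). Of 77 gaps with a member and at least 10 peaks, the interval of the Cre share lay above 54.7% in 4 and below it in 3. Among 77 intervals of 95%, some would miss the overall share by counting error alone, so the gaps named next are descriptions. Between Gm46240 and Dcn there were 36 Cre and 6 GFP peaks (85.7%, 71.5 to 94.6), 31 of the Cre peaks being called in that library alone, with a median of 12 fragments. The neighbouring gap between Btg1 and Gm46240 had 12 and 1. Between Serp2 and Lacc1 there were 28 and 8 and between Runx1 and Setd4 21 and 6, both 77.8%. More GFP peaks were called between Wdr11 and Fgfr2, a growth factor receptor gene (7 Cre and 19 GFP), between Crispld1 and Crisp4 (6 and 16) and between Hectd2 and Ppp1r3c (3 and 12). Peaks of a gap are neighbours in 1 library, so these intervals are too narrow, and a missing peak can be a site just under the caller's threshold.

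**Figure D5:**
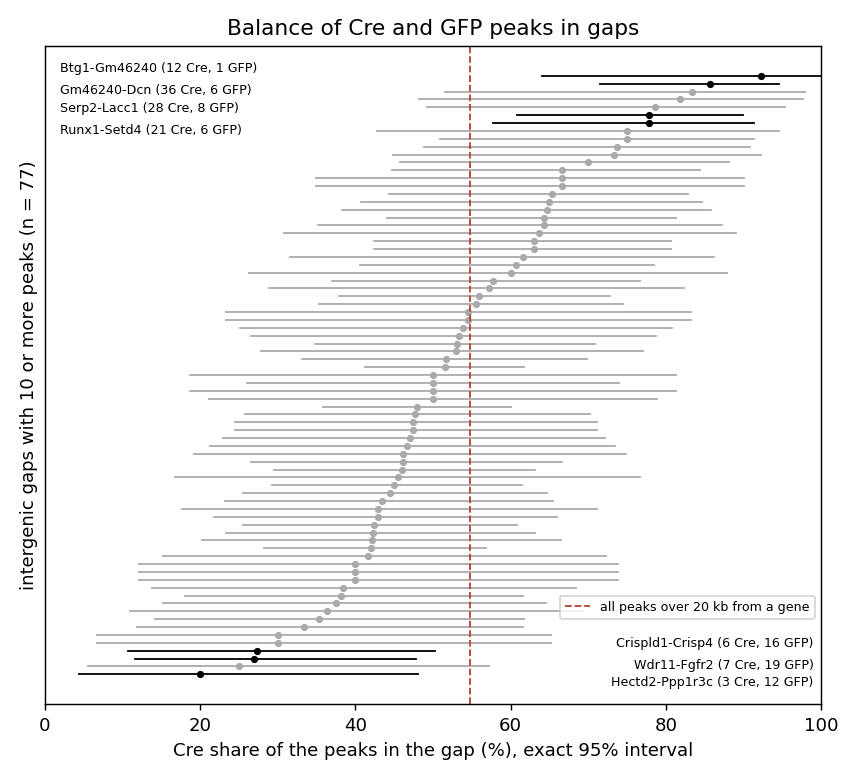
Cre share (%) of the Cre and GFP peaks in each of the 77 gaps with a member and 10 or more peaks, with exact 95% intervals, sorted from high to low. The dashed line is the share over all far peaks, 54.7%, and black marks the 7 gaps whose interval does not include it.

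Members faced the start and the end of their nearest gene about equally. Of 396 members whose nearest gene had a known strand, 54.0% (49.0 to 59.0) faced its 5′ end, against 45.6% (42.0 to 49.3) of one-library Cre peaks. Counted once per gene end, it was 52.3% (44.6 to 59.9) of 174 ends beside members and 51.5% (46.0 to 56.9) of 342 beside one-library Cre peaks.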

How the data were processed

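H3K27ac was profiled in 1 library of each culture, with a separate peak list for each. The file layout is that of MACS2 output. BWA, Picard, SICER, bcl2fastq (1.8.4) and the build mm10 are named by the submitters' processing notes; how MACS2 was run, its version and its control were not given in the sources used here. The authors deposited for each peak a score, a fold enrichment (a ratio at the summit), a −log10 p-value and a −log10 q-value.

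Fold and −log10 p-value were solved together for the summit pileup. Only whole numbers were tried for it, and the fit met a tolerance of 0.001 in 100% of peaks of both lists. A member's partner was its overlapping GFP peak of highest fold. Genes and strands came from RefSeq GRCm38.p6 tables. No genome sequence was used here, so planned motif counts around summits were replaced by promoter windows. Shares carry Clopper-Pearson intervals, pileups Poisson intervals and medians order-statistic intervals. The calculations were tested on simulated data (Python 3.11.15, numpy 2.4.6, pandas 2.3.3, scipy 1.17.1). Named genes flank the largest clusters and the members of highest fold, greatest distance or most extreme ratio, or belong to a list; others were chosen after their values were seen. Members and lists were chosen with earlier results of these data known. A few genes that this rule names, and 1 list, are not reported here.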

Additional observations from a re-analysis of the deposited data

How the results depend on the processing

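Of 48 values recomputed under other settings, 36 stayed within the spread used for each and 12 moved; no test stood behind any of them. The number of members was 339 beyond 50 kb, 297 with an overlap of at least 50% of both peaks, 334 when both lists were limited to −log10 q-values of 5 or more and 216 with distance to any annotated gene. The share of overlapping Cre peaks that were far from genes was 13.2% beyond 10 kb, 6.34% beyond 50 kb and 4.04% with any annotated gene. The share of members in clusters was 51.5% with the 50% overlap and 63.5% with the q-value limit, both of which leave fewer peaks to join. The median log2 pileup ratio crossed 0, from −0.087, to 0.020 when GFP peaks were the rows and to 0.020 for members with summits within 200 bp. The median log2 width ratio was 0.079 with GFP peaks as rows, where a wide GFP peak counts once. The settings with summits within 200 bp and with merged regions were chosen after seeing the data. No paired analysis was possible because the labels give no replicate numbers and each culture has 1 library. Pileups of 7 to 37 fragments limit what a single peak can show.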
